A study of Mus musculus with 19 samples.

Results

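The leukocyte integrins are the adhesion receptors by which white blood cells hold on to the vessel wall, to other cells and to the matrix. The 6 genes described are Itgb2, which encodes the common beta2 chain (CD18), Itgam (CD11b), Itgax (CD11c), Itgad (CD11d) and Itgal (CD11a), the alpha chains that pair with it, and Itga4 (CD49d), the alpha4 chain. They were taken by gene symbol from a table of 24237 genes, where they fill 7 rows. The additional row carries the symbol Itgam with the identifier of a read-through transcript, and it is kept apart below.

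Epididymal white adipose tissue (eWAT) of wild-type male C57Bl6/J mice was sequenced after 17 weeks on a diet, with 1 library per mouse. The diet was low (LFD) or high (HFD) in fat, and each came with a normal (NormMg) or a low (LowMg) content of magnesium. The groups are NormMg-LFD (n = 4, replicates 2 to 5), LowMg-LFD (n = 5), NormMg-HFD (n = 5) and LowMg-HFD (n = 5), and no mouse carried an engineered allele. The comparisons ask what dietary fat does to the expression of these genes, and whether the Mg2+ content of the diet changes that.

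Each integrin is a pair of 1 alpha and 1 beta chain. Beta2 joins alphaL, alphaM, alphaX or alphaD and is found on white blood cells alone, whereas alpha4 joins the beta1 chain (Itgb1) or the beta7 chain (Itgb7). Binding of a ligand needs a divalent cation, such as Mg2+, held in the head of the receptor. In adipose tissue CD11b is carried by macrophages and other myeloid cells, and CD11c is widely used to mark the macrophages that gather in fat during obesity.

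Expression is given as FPKM, in which the sequenced fragments of a gene are divided by transcript length and library size, as the authors deposited it. Levels on this scale can be set beside each other between genes. Between 12986441 and 13027028 reads were obtained per library, and 86.12% to 90.41% of them were mapped. The adipocyte genes marked the tissue in every group, with Adipoq (adiponectin) at group means of 1263 to 2340 FPKM. In NormMg-LFD replicate 3, the 14 genes of the exocrine pancreas summed to 1849 FPKM, against 12.46 to 61.73 FPKM in the other 18 libraries. In LowMg-LFD replicate 4, the 5 genes of the epididymis summed to 121.1 FPKM, against 0 to 3.61 FPKM elsewhere. The study set aside a LowMg-HFD library for pancreatic tissue, which the labels do not name, so that all LowMg-HFD libraries are used here. Without NormMg-LFD replicate 3 and LowMg-LFD replicate 4 together, the calls on the 6 genes were those given below, with the exception of Itgam in 1 comparison.

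On the mouse assembly GRCm38, with GENCODE M21 as the annotation, all 6 genes lie on the plus strand. Itgb2 (ENSMUSG00000000290.13) is at chr10:77530252-77565708 and Itga4 (ENSMUSG00000027009.18) at chr2:79255426-79333123. The 4 alpha chains of beta2 share chromosome 7. Itgal (ENSMUSG00000030830.18) is at chr7:127296260-127335138, and 727501 bases further on follow Itgam (ENSMUSG00000030786.18, chr7:128062640-128118491), Itgax (ENSMUSG00000030789.9, chr7:128129547-128150657) and Itgad (ENSMUSG00000070369.13, chr7:128154376-128223816). The last 3 stand in a row within 161177 bases.

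The 250 bases before the start are shown for Itgam, Itgax and Itga4, 3 of the 5 genes that rose on the NormMg-HFD, from RefSeq on GRCm38.p6 and on the plus strand. Itgb2, Itgal and Itgad are named only. Capitals mark GAGGAA and its reverse complement TTCCTC, a purine-rich core of the kind bound by ETS factors such as PU.1, a regulator of myeloid genes. The windows are chr7:128062390-128062639, chr7:128129300-128129549 and chr2:79255176-79255425.
Itgam: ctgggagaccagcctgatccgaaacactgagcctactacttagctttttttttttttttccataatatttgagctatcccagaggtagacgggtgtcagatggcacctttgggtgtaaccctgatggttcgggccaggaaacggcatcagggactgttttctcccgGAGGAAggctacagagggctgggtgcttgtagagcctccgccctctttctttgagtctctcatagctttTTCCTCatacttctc
Itgax: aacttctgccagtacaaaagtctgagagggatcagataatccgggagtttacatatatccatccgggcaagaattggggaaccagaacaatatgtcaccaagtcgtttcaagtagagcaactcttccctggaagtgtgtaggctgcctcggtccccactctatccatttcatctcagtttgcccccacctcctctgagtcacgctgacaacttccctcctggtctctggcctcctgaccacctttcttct
Itga4: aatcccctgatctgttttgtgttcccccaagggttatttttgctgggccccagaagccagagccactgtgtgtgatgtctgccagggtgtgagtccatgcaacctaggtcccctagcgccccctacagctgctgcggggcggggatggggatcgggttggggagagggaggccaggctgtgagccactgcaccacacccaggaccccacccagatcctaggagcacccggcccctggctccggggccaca
The Itgam window held 2 matches, 84 to 79 bases and, on the opposite strand, 15 to 10 bases before the start. The windows of Itgax and Itga4 held 0 matches to these letters. Of 32851 promoter windows of the same length, 23.3% held at least 1 match and 3.54% at least 2.

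Reads of related or overlapping genes can be split by the counting. Of the 50-base words in the transcripts of Itgad, 8.43% also occur in those of Itgax, while Itgal, Itga4 and Itgb2 share 0 words with any other of the 6 genes, so that reads of this length could not be told apart between Itgax and Itgad over that stretch. The read-through record under the symbol Itgam (ENSMUSG00000108596.1) covers 68.7% of the exonic bases of Itgam, and its group means were 0.19 to 0.38 FPKM. It is too low to be tested. On the opposite strand, Cox6a2 shares 70 exonic bases (1.55%) with Itgad, and Cerkl shares 1124 exonic bases (8.04%) with Itga4. Itgad shares more bases with 4931431B13Rik (388, 8.6%) and Gm39091 (102, 2.26%), also on the opposite strand, for which no FPKM is given. On the same strand it shares 330 bases (7.32%) with Gm17831, which had group means of 0 to 0.04 FPKM. Whether the counting used strand is not given in the sources used here. Group means of Cox6a2 were 0.0675, 0.052, 2.71 and 0.684 FPKM and those of Cerkl 2.22, 3.02, 8.17 and 4.82 FPKM, in NormMg-LFD, LowMg-LFD, NormMg-HFD and LowMg-HFD. In both pairs the means of the 4 groups stood in the same order as those of the integrin, and the share of reads that passed between the genes of a pair was not tested.

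Of the leukocyte integrins, 5 of 6 rose on the HFD at normal Mg2+, against 15.9% of all genes tested. On the HFD 4 of these 5 fell when Mg2+ was low, against 6.97% of all genes tested. Itgb2 rose 7.58-fold, Itgam 4.3-fold, Itgad 19.2-fold and Itgax 19.9-fold between the group means. With the low Mg2+ content, the means of these 4 genes on the HFD were 55.7% to 73.4% below those of NormMg-HFD mice. Itgal, the alpha chain of lymphocytes in particular, did not pass the test in any comparison. On the LFD, the Mg2+ content moved none of the 6 past the test.

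**Figure D1:**
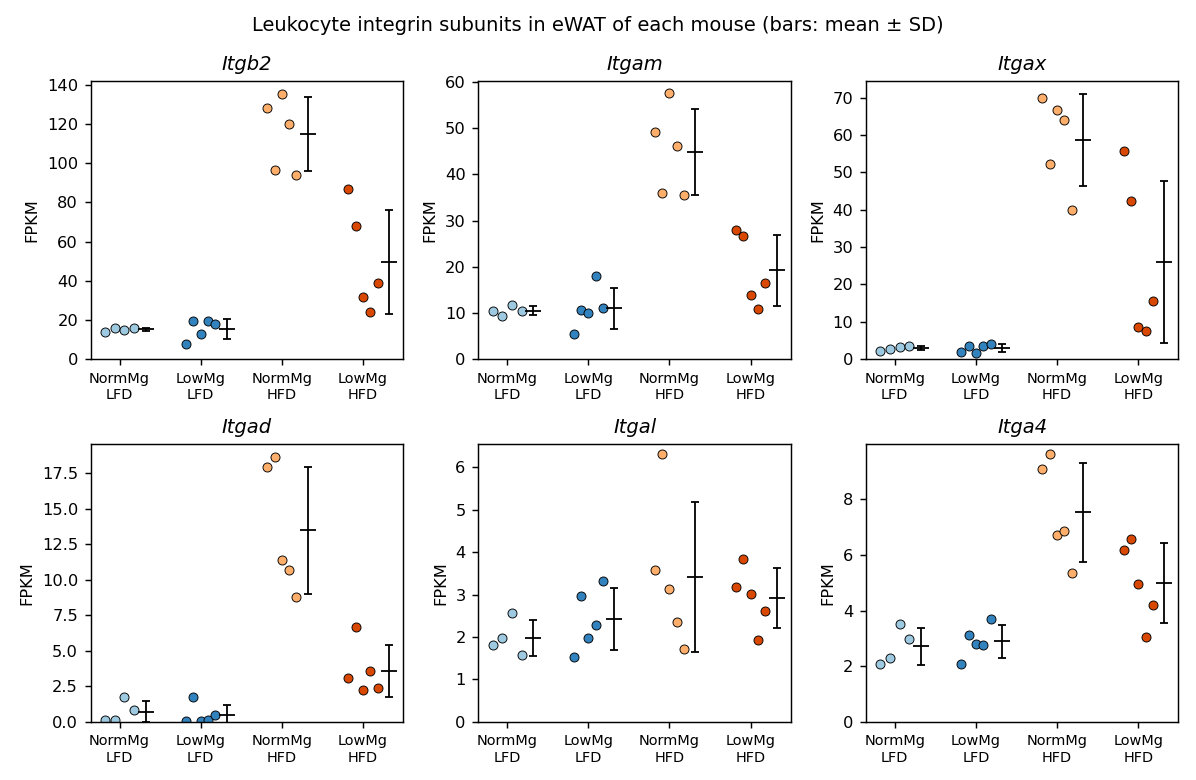
FPKM (vertical axes, linear, each starting at 0) of the 6 leukocyte integrin genes in the 4 diet groups, with 1 point per mouse in the order of the replicate numbers and the mean ± SD beside the points. For Itgb2 the NormMg-HFD mice sit between 93.71 and 135.54 FPKM, above all other mice, and the LowMg-HFD mice between 23.83 and 86.86 FPKM, above all LFD mice.

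Itgb2, the chain that all 4 receptors need to reach the cell surface, was present at 14.0, 15.6, 15.04 and 15.96 FPKM in NormMg-LFD replicates 2 to 5. In NormMg-HFD replicates 1 to 5 it was at 128.17, 96.68, 135.54, 119.97 and 93.71 FPKM. Every NormMg-HFD mouse was above every NormMg-LFD mouse. The difference was 2.83 ± 0.31 (SE) on the log2(FPKM + 1) scale, with an adjusted p of 5.01e-06 by limma. Here and below, 1 was added to each FPKM before taking log2, which makes a difference between low values smaller than the fold between means, and p was adjusted by the Benjamini-Hochberg method over 15785 genes. A threshold of 0.05 was used, by which 15.9% of all genes tested were higher on the HFD at normal Mg2+ and 8.82% were lower. The ranges of the mice did not overlap for 5 of the 6 leukocyte integrins in this comparison, all in the direction of the HFD, and for 14.8% of all genes tested. In a piece of tissue, more cells that carry a transcript and more of it per cell cannot be told apart.

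In LowMg-HFD replicates 1 to 5, Itgb2 was at 86.86, 67.72, 31.55, 23.83 and 38.6 FPKM. The group was spread widely, with replicates 1 and 2 high and replicate 4 low, yet all 5 mice were below the NormMg-HFD mice. The mean was 49.71 ± 26.59 FPKM (SD, n = 5) against 114.8 ± 18.77 FPKM (SD, n = 5). Itgb2 fell by 1.33 ± 0.29 (SE) on the log2 scale with the low Mg2+ content, at an adjusted p of 0.008 (limma). In this comparison 6.97% of all genes tested were lower and 2.58% higher in LowMg-HFD mice, and 6.1% were lower without overlap of the mice.

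In LowMg-LFD replicates 1 to 5, Itgb2 was at 7.55, 19.56, 12.87, 19.41 and 17.73 FPKM. The NormMg-LFD values lie inside this range, and the mean of 15.42 ± 5.17 FPKM (SD, n = 5) was close to the 15.15 ± 0.855 FPKM (SD, n = 4) at normal Mg2+. The log2 difference was -0.05, with a 95% interval of -0.69 to 0.60. At low Mg2+ the HFD raised Itgb2 by 1.54 ± 0.29 (SE) on the log2 scale (adjusted p = 0.00392, limma), without overlap of the mice. Here 6.06% of all genes tested were higher on the HFD and 1.65% lower, and 4.71% were higher without overlap. The median of all genes in this comparison was itself 0.114, so that the rise of Itgb2 stands above a small general shift. When only these 2 groups were fitted, the adjusted p of Itgb2 at low Mg2+ was 0.056.

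Itgam pairs with beta2 to form Mac-1, which binds ICAM-1, fibrinogen and the complement fragment iC3b. It was the most abundant alpha chain on the LFD, at 10.36, 9.25, 11.66 and 10.45 FPKM in NormMg-LFD replicates 2 to 5. In NormMg-HFD replicates 1 to 5 it reached 49.18, 35.93, 57.61, 46.16 and 35.55 FPKM. The groups were clearly apart, with a log2 difference of 1.99 ± 0.27 (SE, adjusted p = 3.28e-05, limma). In LowMg-HFD replicates 1 to 5, Itgam was at 28.05, 26.75, 13.85, 10.91 and 16.53 FPKM, and again every mouse was below the NormMg-HFD mice. It fell by 1.25 ± 0.26 (SE) on the log2 scale, at an adjusted p of 0.00688 (limma). Group means were 44.89 ± 9.35 FPKM and 19.22 ± 7.74 FPKM (SD, n = 5 each).

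LowMg-LFD replicates 1 to 5 had 5.33, 10.58, 10.0, 17.89 and 10.95 FPKM of Itgam. Replicate 4, the library with epididymal transcripts, was the highest of these and lay above 3 of the 5 LowMg-HFD mice. The difference between the diets at low Mg2+ was 0.76 ± 0.26 (SE), which did not pass the test (adjusted p = 0.0818, limma). Without LowMg-LFD replicate 4 it was 0.94, at an adjusted p of 0.0275, and without LowMg-HFD replicate 4 it was 0.93, at an adjusted p of 0.0266 (limma). With both NormMg-LFD replicate 3 and LowMg-LFD replicate 4 left out, a choice made after seeing the data, the adjusted p was 0.0342 (limma). With all mice kept and the study's filter on low genes, 0.76 passed at an adjusted p of 0.0498 (limma).

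Itgax pairs with beta2 to form a second receptor for iC3b and fibrinogen, and it is the chain carried by dendritic cells and by adipose tissue macrophages of obese mice. On the NormMg-LFD it was low, at 2.14, 2.71, 3.35 and 3.58 FPKM in replicates 2 to 5. On the NormMg-HFD it was the most abundant alpha chain, at 70.03, 52.22, 66.74, 64.12 and 40.01 FPKM in replicates 1 to 5. No mouse of one group came near the other, and the log2 difference was 3.91 ± 0.43 (SE, adjusted p = 5.55e-06, limma).

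In LowMg-HFD replicates 1 to 5, Itgax was at 55.62, 42.36, 8.7, 7.61 and 15.59 FPKM. Replicates 1 and 2 lay within the range of the NormMg-HFD mice, and replicates 3 to 5 lay below it. The mean of 25.98 ± 21.74 FPKM (SD, n = 5) therefore stands for a group with mice at very different levels, whereas NormMg-HFD mice had 58.62 ± 12.39 FPKM (SD, n = 5). Itgax fell by 1.53 ± 0.41 (SE) on the log2 scale with low Mg2+ (adjusted p = 0.0234, limma). This call was lost in 7 of 28 alternative settings, among them the fit on these 2 groups alone (adjusted p = 0.0884, limma). It was also lost without any 1 of NormMg-HFD replicates 1, 3 and 4 or LowMg-HFD replicates 3, 4 and 5, at adjusted p values of 0.0597, 0.0633, 0.0548, 0.0763, 0.0528 and 0.0613 in this order (limma).

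LowMg-LFD replicates 1 to 5 had 1.91, 3.57, 1.59, 3.52 and 3.96 FPKM of Itgax, which overlaps with the NormMg-LFD mice on both sides. The log2 difference between the Mg2+ contents on the LFD was -0.05, with a 95% interval of -0.96 to 0.86. At low Mg2+ the HFD raised Itgax 8.93-fold between the means, by 2.42 ± 0.41 (SE) on the log2 scale (adjusted p = 0.00221, limma). The lowest LowMg-HFD mouse was still above the highest LowMg-LFD mouse.

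Itgad, the alphaD chain, is known from tissue macrophages, and its receptor binds VCAM-1. It was close to the lower end of what can be measured on the LFD, at 0.14, 0.14, 1.71 and 0.82 FPKM in NormMg-LFD replicates 2 to 5 and at 0.06, 1.71, 0.05, 0.14 and 0.5 FPKM in LowMg-LFD replicates 1 to 5. In NormMg-HFD replicates 1 to 5 it stood at 17.91, 18.63, 11.38, 10.65 and 8.77 FPKM. The log2 difference at normal Mg2+ was 3.13 ± 0.34 (SE, adjusted p = 4.96e-06, limma), without overlap of the mice, and it was 4.54 when 0.1 was added in place of 1 before taking log2. The fold of 19.2 between the means depends on the very low LFD values, which differ among themselves by more than their mean.

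In LowMg-HFD replicates 1 to 5, Itgad was at 3.1, 6.66, 2.23, 3.55 and 2.34 FPKM. All 5 mice were below the NormMg-HFD mice and above the LowMg-LFD mice. With low Mg2+ on the HFD it fell by 1.68 ± 0.32 (SE) on the log2 scale (adjusted p = 0.00494, limma), from a mean of 13.47 ± 4.49 to 3.58 ± 1.81 FPKM (SD, n = 5 each). Of the 6 genes it had the greatest fall in percent, 73.4% of the mean. At low Mg2+ the HFD raised it by 1.64 ± 0.32 (SE, adjusted p = 0.00442, limma). With a value of 0.1 in place of 1 added before taking log2, the rise at low Mg2+ was 3.23, and the fall with low Mg2+ on the HFD was 1.94 and no longer passed the test (adjusted p = 0.0649, limma).

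Itgal pairs with beta2 to form LFA-1, the receptor by which lymphocytes bind ICAM-1 on other cells. It was at 1.81, 1.98, 2.57 and 1.57 FPKM in NormMg-LFD replicates 2 to 5 and at 3.57, 6.32, 3.13, 2.35 and 1.71 FPKM in NormMg-HFD replicates 1 to 5. The groups overlapped, and replicate 2 of the NormMg-HFD mice was the highest of all 19 mice. The log2 difference of 0.49 ± 0.24 (SE) did not pass the test (adjusted p = 0.149, limma), with a 95% interval of -0.01 to 0.99.

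In LowMg-HFD replicates 1 to 5, Itgal was at 3.17, 3.84, 3.01, 1.94 and 2.62 FPKM, inside the range of the NormMg-HFD mice. The log2 difference between the Mg2+ contents on the HFD was -0.11, with a 95% interval of -0.58 to 0.37 (adjusted p = 0.808, limma). It was 0.09 without NormMg-HFD replicate 2, so that its sign rests on that mouse. LowMg-LFD mice ranged from 1.52 to 3.33 FPKM, with a median of 2.28 FPKM.

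Itga4 binds VCAM-1 and fibronectin when joined to Itgb1 and MAdCAM-1 when joined to Itgb7, and it is shared by lymphocytes, monocytes and other white blood cells. It was at 2.08, 2.28, 3.53 and 2.98 FPKM in NormMg-LFD replicates 2 to 5 and at 9.1, 9.62, 6.73, 6.85 and 5.36 FPKM in NormMg-HFD replicates 1 to 5. The mice did not overlap, and the rise was 1.19 ± 0.20 (SE) on the log2 scale (adjusted p = 0.000182, limma), or 2.77-fold between the means. Cerkl on the opposite strand had the same order of means, as given above.

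In LowMg-HFD replicates 1 to 5, Itga4 was at 6.17, 6.57, 4.96, 3.06 and 4.19 FPKM, so that replicates 1 and 2 reached into the NormMg-HFD range. The log2 difference between the Mg2+ contents on the HFD, -0.52 ± 0.18 (SE), did not pass the test (adjusted p = 0.0846, limma), with a 95% interval of -0.91 to -0.13. It passed without NormMg-HFD replicate 5 (adjusted p = 0.0436) and without LowMg-HFD replicate 2 (adjusted p = 0.0483, limma). LowMg-LFD mice ranged from 2.09 to 3.7 FPKM, with a median of 2.79 FPKM. At low Mg2+ the difference between the diets was 0.60 ± 0.18 (SE, adjusted p = 0.0537, limma), just outside the threshold. It passed in 5 of 27 alternative settings, with adjusted p values of 0.0134 to 0.406 over all of them (limma).

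**Figure D2:**
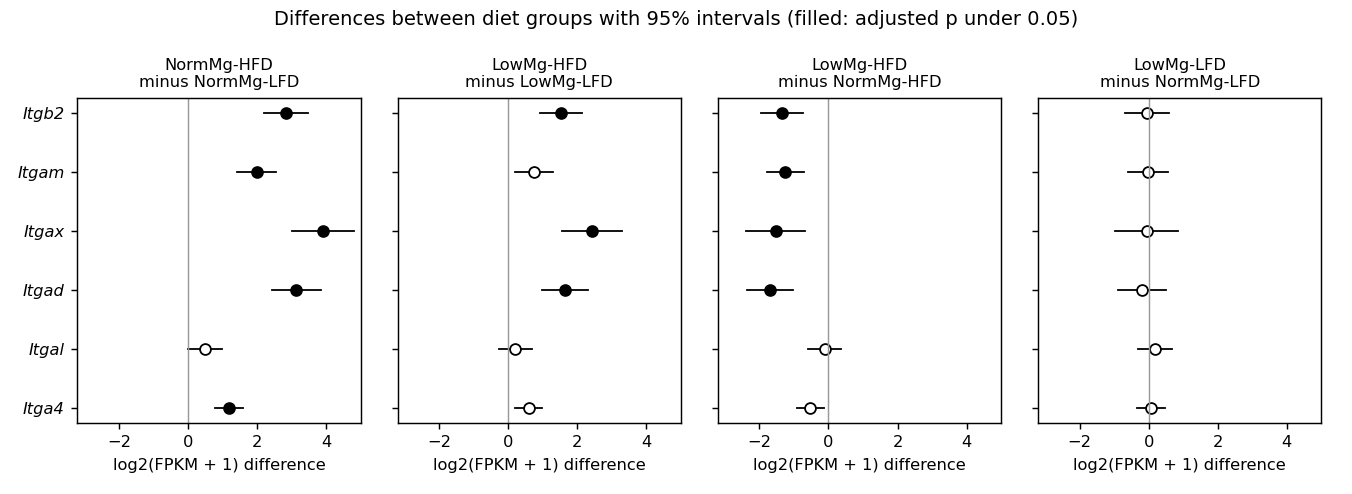
Difference in log2(FPKM + 1) (horizontal axes) of each leukocyte integrin gene (rows) in 4 comparisons between diet groups, with the 95% interval as a line and a filled point where the adjusted p of limma was under 0.05. On the HFD at normal Mg2+ 5 of 6 points are filled and to the right of 0, and in LowMg-HFD minus NormMg-HFD 4 of 6 are filled and to the left of 0.

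Read over the whole family, the HFD raised 5 of the 6 genes at normal Mg2+ and 3 of the 6 at low Mg2+, and low Mg2+ lowered 4 of the 6 on the HFD. The ranges of the mice did not overlap for 5, 3 and 3 of the 6 in these comparisons. Over all genes tested, 15.9%, 6.06% and 6.97% were called in these directions, and 14.8%, 4.71% and 6.1% did not overlap. These comparisons share the HFD groups and are not independent of each other. On the LFD low Mg2+ moved 0 of the 6 past the test, with log2 differences of -0.20 to 0.18 and adjusted p values of 0.896 to 0.991 (limma). In that comparison 0% of all genes tested passed, and 888 genes had an unadjusted p under 0.05.

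Whether low Mg2+ acts differently on the HFD than on the LFD was tested by the interaction of the 2 diet factors in limma. For Itgb2 the interaction was -1.29 ± 0.42 (SE) on the log2 scale, which did not pass the test (adjusted p = 0.139). For Itgam, Itgad and Itgax it was -1.23, -1.48 and -1.48, with adjusted p values of 0.119, 0.126 and 0.232 (limma). For Itga4 and Itgal it was -0.59 and -0.29, with adjusted p values of 0.295 and 0.671 (limma). The interaction was called for 0% of all genes tested, while 2480 genes had an unadjusted p under 0.05. Without LowMg-HFD replicate 1 the interaction of Itgb2 was -1.53 and passed (adjusted p = 0.0469, limma).

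In every mouse the alpha chains together were about as abundant as the beta chain. The summed FPKM of Itgam, Itgax, Itgad and Itgal, divided by that of Itgb2, ranged from 0.881 to 1.28 over 19 mice with a median of 1.03, while Itgb2 itself differed 18-fold between the lowest and the highest mouse. The group means of this ratio were 1.06 ± 0.159 in NormMg-LFD (SD, n = 4), 1.09 ± 0.104 in LowMg-LFD, 1.05 ± 0.0937 in NormMg-HFD and 1.01 ± 0.109 in LowMg-HFD mice (SD, n = 5 each). These ratios are descriptions of mRNA scaled for length, without a test. The spread within each group was larger than the distance between any 2 group means.

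**Figure D3:**
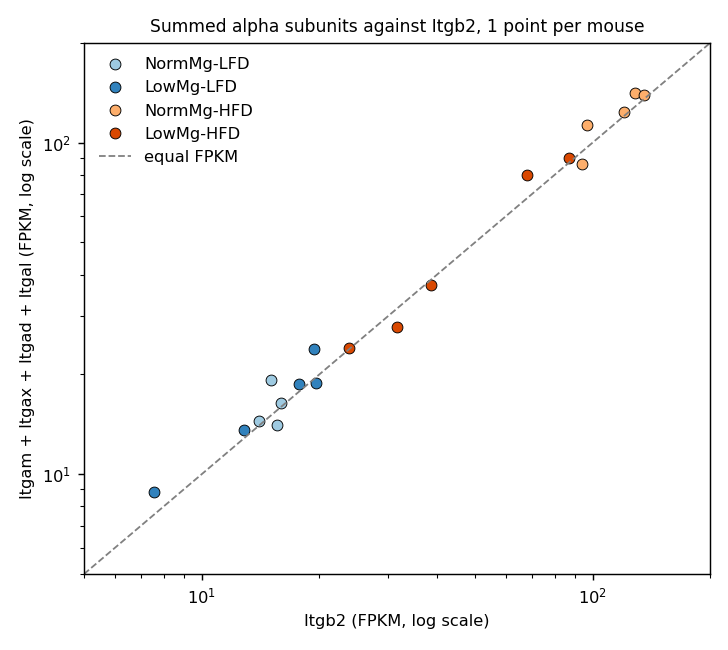
Summed FPKM of Itgam, Itgax, Itgad and Itgal (vertical axis, log scale) against Itgb2 (horizontal axis, log scale), with 1 point per mouse and a dashed line where both are equal. The 19 mice follow the line from 7.55 to 135.54 FPKM of Itgb2, with ratios of 0.881 to 1.28.

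The make-up of the alpha chains differed between the diets. In NormMg-LFD mice Itgam made up 65.4 ± 4.74% (SD, n = 4) of the summed alpha chains, Itgax 18.3 ± 2.96%, Itgal 12.4 ± 1.97% and Itgad 3.96 ± 3.78%. In NormMg-HFD mice Itgax led with 48.5 ± 2.43% (SD, n = 5), followed by Itgam with 37.4 ± 4.18%, Itgad with 11.2 ± 3.42% and Itgal with 2.85 ± 1.55%. The shares of Itgam, Itgax and Itgal did not overlap between these groups, with Itgam at 60.4% to 71.7% against 31.8% to 41.5% and Itgax at 14.8% to 21.8% against 46.2% to 52.0%. The share of Itgad overlapped, at 0.969% to 8.86% against 8.2% to 16.5%.

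In LowMg-LFD mice the shares were close to those at normal Mg2+, with Itgam at 64.7 ± 8.85%, Itgax at 17.6 ± 4.3%, Itgal at 15.0 ± 3.28% and Itgad at 2.68 ± 3.7% (SD, n = 5). In LowMg-HFD mice Itgax made up 44.0 ± 13.4% and Itgam 40.9 ± 8.09% (SD, n = 5), and the mice differed in which of both led. Itgax divided by Itgam was 1.98 and 1.58 in replicates 1 and 2 but 0.628, 0.698 and 0.943 in replicates 3 to 5, against 1.13 to 1.45 in NormMg-HFD mice. Itgax made up 61.8% and 53.2% in replicates 1 and 2, but 31.3%, 31.7% and 42.0% in replicates 3 to 5. So replicates 1 and 2, which had the highest Itgb2 of their group, also had the highest share of Itgax, above that of every NormMg-HFD mouse. Itgal made up 6.87 ± 2.85% and Itgad 8.19 ± 4.17%.

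**Figure D4:**
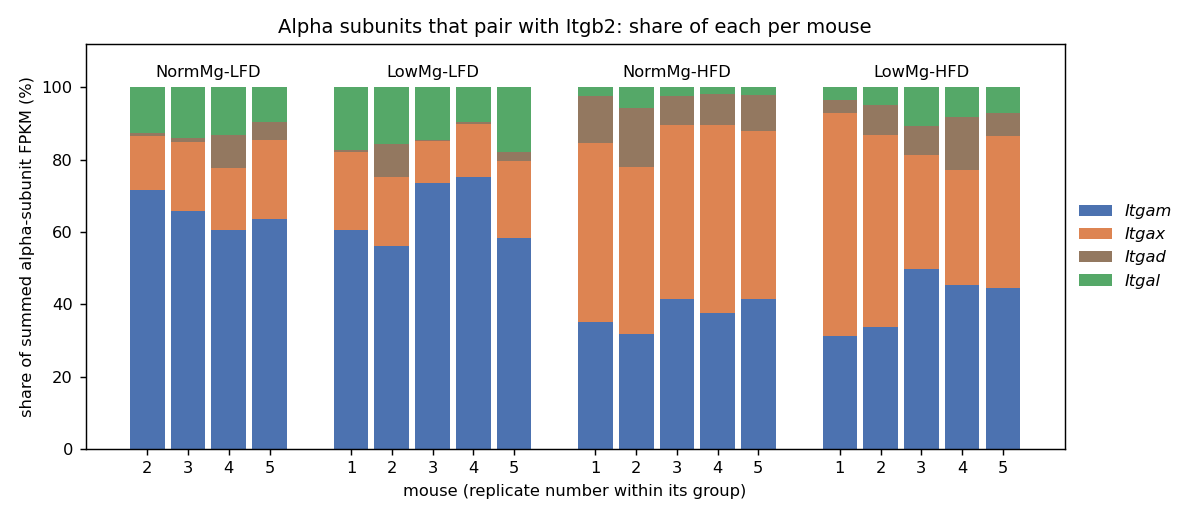
Share of each alpha chain in the summed FPKM of Itgam, Itgax, Itgad and Itgal (vertical axis, percent, from 0 to 100) for each of the 19 mice, grouped by diet and numbered by replicate. Itgam fills 56.2% to 75.1% of the bars of LFD mice, and Itgax 31.3% to 61.8% of those of HFD mice.

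Within a group the order of the 6 genes could be read from FPKM. In NormMg-LFD mice Itgb2 and Itgam were first, and Itgax at 2.94 ± 0.651, Itga4 at 2.72 ± 0.665 and Itgal at 1.98 ± 0.426 FPKM (SD, n = 4) followed as neighbours that overlap in their mice, with Itgad last and its highest mouse at 1.71 FPKM reaching the lowest of Itgal. In LowMg-LFD mice the same 3 genes overlapped, at 2.91 ± 1.08, 2.89 ± 0.585 and 2.41 ± 0.732 FPKM (SD, n = 5). In NormMg-HFD mice the order was Itgb2, Itgax, Itgam, Itgad, Itga4 and Itgal, and it was the same within every mouse. Between mice the ranges of Itgax and Itgam, of Itgad and Itga4 and of Itga4 and Itgal overlapped. In LowMg-HFD mice Itga4, with 4.99 ± 1.44 FPKM, stood above Itgad with 3.58 ± 1.81 and Itgal with 2.92 ± 0.701 FPKM (SD, n = 5), all overlapping.

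Over the 19 mice, the log2 levels of Itgb2 had Pearson correlations of 0.99 with Itgax, 0.97 with Itgam, 0.93 with Itga4, 0.92 with Itgad and 0.56 with Itgal. These include the differences between the groups. After the mean of each group was taken out, they were 0.91 for Itgax, 0.92 for Itgam, 0.65 for Itga4, 0.36 for Itgad and 0.44 for Itgal. Itgal was closest to Itga4, at 0.75 over the mice and 0.82 within groups. All genes of a mouse share its piece of tissue and its library, so these values are descriptions. Within groups, Itgam and Itgax were closer to Itgb2 than Itgad and Itgal were.

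The 8 genes outside the family whose levels were most like those of Itgb2 were Nckap1l, Ctss, Cd84, Lcp1, Cd300lb, Lyz2, Cd200r1 and Cd300c2, with correlations of 0.988 to 0.994 over 19 mice. Within groups the correlations were 0.904 to 0.979. Nckap1l encodes a blood cell subunit of the WAVE complex that drives actin assembly, Lcp1 encodes an actin-bundling protein of white blood cells, Ctss encodes the lysosomal protease cathepsin S and Lyz2 encodes lysozyme. Nckap1l had group means of 8.42, 7.94, 55.2 and 22.7 FPKM in NormMg-LFD, LowMg-LFD, NormMg-HFD and LowMg-HFD mice.

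Itgb1, a partner of alpha4 that pairs with many alpha chains in most cell types, was at 113 ± 4.24 FPKM in NormMg-LFD (SD, n = 4) and 167 ± 7.7 FPKM in NormMg-HFD mice (SD, n = 5), a log2 difference of 0.56 ± 0.09 (SE, adjusted p = 0.000194, limma). Itgb7 was at 4.03 ± 0.928 and 6.25 ± 1.27 FPKM, a difference of 0.52 ± 0.19 (SE, adjusted p = 0.0465, limma). Neither passed the test between LowMg-HFD and NormMg-HFD mice, with differences of -0.21 and -0.28.

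Of 15 genes for ligands and counter-receptors, 9 were expressed highly enough to be tested. On the NormMg-HFD 3 of the 9 rose and 0 were lower, against 15.9% and 8.82% of all genes tested. Fn1 (fibronectin, a ligand of alpha4) rose by 0.79 ± 0.23, Icam1, the main ligand of beta2 on endothelium, by 0.78 ± 0.14 and C3, the source of iC3b, by 0.55 ± 0.19 (SE, log2 scale), at adjusted p values of 0.0153, 0.000485 and 0.0369 (limma). Vcam1, the ligand of alpha4 on endothelium, was at 10.6 ± 5.97 FPKM in NormMg-LFD (SD, n = 4) and 16.3 ± 3.89 FPKM in NormMg-HFD mice (SD, n = 5) and did not pass (adjusted p = 0.0854, limma). Between LowMg-HFD and NormMg-HFD mice, Fn1 was lower by 0.81 ± 0.21 (SE, adjusted p = 0.0224, limma), while Icam2 and Jam2, 2 proteins of the endothelium, were higher by 0.51 and 0.41. The median log2 difference of the 9 genes was 0.55 on the NormMg-HFD against -0.011 over all genes tested, and -0.22 with low Mg2+ on the HFD against 0.012. For the 4 alpha chains of beta2 these medians were 2.56 and -1.39.

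Integrins are switched on from inside the cell, when talin and kindlin bind the tail of the beta chain. Of 12 genes of this step, 8 rose and 1 was lower on the NormMg-HFD, against 15.9% and 8.82% of all genes tested. Low Mg2+ on the HFD lowered 6 and raised 0, against 6.97% and 2.58% of all genes tested. Fermt3 (kindlin-3, the kindlin of blood cells) had means of 7.39 ± 1.88 FPKM in NormMg-LFD (SD, n = 4), 31 ± 5.89 FPKM in NormMg-HFD and 16.0 ± 6.7 FPKM in LowMg-HFD mice (SD, n = 5 each). It rose by 1.94 ± 0.25 (SE, adjusted p = 2.03e-05) and fell by 0.98 ± 0.24 (SE, adjusted p = 0.014) on the log2 scale (limma). Tln1 (talin-1), which is present in most cells, rose by 0.70 ± 0.11 and fell by 0.37 ± 0.11 (SE), at adjusted p values of 0.000152 and 0.0325 (limma). Fyb, an adaptor of this pathway in white blood cells, and Apbb1ip (RIAM), which brings talin to the membrane, rose by 2.25 and 1.70 and fell by 1.15 and 1.02. Rasgrp2, which activates Rap1, was the gene that was lower on the NormMg-HFD, at -0.48 on the log2 scale. It was read from 1 of the 2 genes listed under this symbol (ENSMUSG00000106685.3), between which the counting could split reads.

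Of 5 genes that hold integrins back, 3 rose and 1 was lower on the NormMg-HFD, against 15.9% and 8.82% of all genes tested. Low Mg2+ on the HFD lowered 2, against 6.97% of all genes tested. Cytip, which restrains beta2 adhesion, and Dok1, which competes with talin, rose by 1.43 and 1.04 and fell by 0.90 and 0.75 on the log2 scale. Itgb1bp1, an inhibitor of beta1 integrins, was at -0.46 on the NormMg-HFD and was the gene called lower.

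Below the receptors, 10 of 11 signalling genes rose on the NormMg-HFD and 5 rose on the HFD at low Mg2+. With low Mg2+ on the HFD 8 fell. The shares over all genes tested were 15.9%, 6.06% and 6.97%. Tyrobp (DAP12), an adaptor that couples beta2 integrins to the kinase Syk, was at 48.8 ± 6.76 FPKM in NormMg-LFD (SD, n = 4), 330 ± 88.3 FPKM in NormMg-HFD and 134 ± 76.3 FPKM in LowMg-HFD mice (SD, n = 5 each). It rose by 2.70 ± 0.30 and fell by 1.44 ± 0.29 (SE), at adjusted p values of 5.92e-06 and 0.00571 (limma). Fcer1g, a further adaptor of this kind, rose by 2.24 and fell by 1.28. Syk itself rose by 2.05 and fell by 1.15, at adjusted p values of 3.82e-05 and 0.0121 (limma). The median of the 11 genes was 1.36 on the NormMg-HFD and -0.70 with low Mg2+ on the HFD.

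Of 12 tested alpha chains outside the family, 3 rose and 1 was lower on the NormMg-HFD, with a median log2 difference of 0.01. Over all genes tested these shares were 15.9% and 8.82%. With low Mg2+ on the HFD 1 was higher and 1 lower, against 2.58% and 6.97% of all genes tested. The counts of this short list lie near these shares. Itga5, a fibronectin receptor found on many cells, rose by 1.28 and fell by 0.80, and Itga7, a laminin receptor known from muscle, rose by 0.80. Itgae (CD103), which is carried by lymphocytes and dendritic cells, was the chain that was lower on the NormMg-HFD, at -0.88 (adjusted p = 0.0034, limma). Of the other beta chains, Itgb3, Itgb4 and Itgb5 were tested, and 0 of these 3 were called in any comparison, nor was Itgbl1, a beta-like protein in the same list.

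Before firm adhesion, white blood cells roll on selectins. Of 4 tested genes of this step, 2 rose on the NormMg-HFD and 2 fell with low Mg2+ on the HFD. They were the same 2 genes, and 15.9% and 6.97% of all genes tested did so. Cd44, a receptor for hyaluronan that also binds selectins, was at 5.58 ± 0.744 FPKM in NormMg-LFD (SD, n = 4), 54.8 ± 15.8 FPKM in NormMg-HFD and 20 ± 11.4 FPKM in LowMg-HFD mice (SD, n = 5 each). Selplg (PSGL-1), the selectin ligand of white blood cells, rose by 1.66 and fell by 0.93 on the log2 scale.

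**Figure D5:**
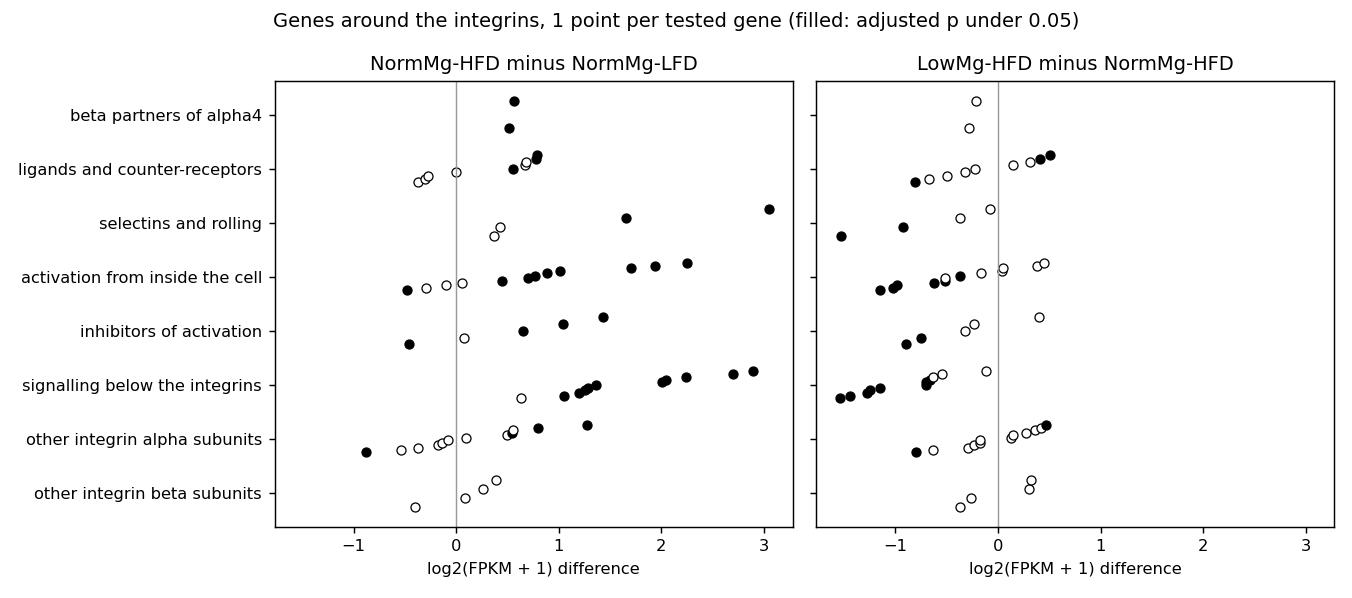
Difference in log2(FPKM + 1) (horizontal axes, the same scale in both panels) of every tested gene in 8 lists around the integrins (rows), for NormMg-HFD minus NormMg-LFD and for LowMg-HFD minus NormMg-HFD, with a filled point where the adjusted p of limma was under 0.05. In the row of signalling genes 10 of 11 points are filled to the right of 0 in the first panel and 8 of 11 to the left in the second, whereas the row of other beta chains, which also holds the beta-like Itgbl1, has no filled point.

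General leukocyte and macrophage markers moved with the integrins, whereas those of lymphocytes, given below, did not. All 5 general leukocyte markers and 7 of 8 macrophage markers rose on the NormMg-HFD, against 15.9% of all genes tested. Low Mg2+ on the HFD lowered 4 of 5 and 7 of 8, against 6.97% of all genes tested. Ptprc (CD45), the marker of all white blood cells, had means of 10.8 ± 1.24 FPKM in NormMg-LFD (SD, n = 4), 12.7 ± 2.68 FPKM in LowMg-LFD, 44.3 ± 7.48 FPKM in NormMg-HFD and 22.4 ± 8.11 FPKM in LowMg-HFD mice (SD, n = 5 each). Adgre1 (F4/80) and Cd68, both markers of macrophages, rose by 2.91 and 3.26 and fell by 1.62 and 1.61 on the log2 scale. The summed macrophage markers ranged from 462.9 to 567.0 FPKM in NormMg-LFD, 352.0 to 665.3 FPKM in LowMg-LFD, 1673 to 2497 FPKM in NormMg-HFD and 562.0 to 1462 FPKM in LowMg-HFD mice, and no marker was at 0 in a whole group. The part of these cells in the integrin values was not tested.

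Set against these markers, Itgb2 divided by Adgre1 was 1.1 ± 0.148, 0.998 ± 0.214, 1.04 ± 0.136 and 1.27 ± 0.0673 in NormMg-LFD, LowMg-LFD, NormMg-HFD and LowMg-HFD mice, so that the ratio stayed near 1 while both genes differed several-fold. Itgb2 divided by Ptprc was 1.42 ± 0.23, 1.2 ± 0.293, 2.6 ± 0.233 and 2.13 ± 0.498, higher in every HFD mouse than in every LFD mouse. Itgam divided by Ptprc was 0.97 ± 0.0504, 0.859 ± 0.314, 1.01 ± 0.109 and 0.849 ± 0.0672, which overlapped in all groups. Itgam divided by Adgre1 was 0.753 ± 0.045, 0.707 ± 0.207, 0.404 ± 0.0536 and 0.518 ± 0.0829, and NormMg-LFD (0.7 to 0.806) and NormMg-HFD mice (0.344 to 0.479) did not overlap in it. Itgax divided by Ptprc was 0.275 ± 0.0629, 0.23 ± 0.066, 1.32 ± 0.142 and 1.01 ± 0.592, again without overlap between the diets. Itgal divided by Ptprc was 0.185 ± 0.0385, 0.189 ± 0.0314, 0.0769 ± 0.0403 and 0.136 ± 0.0286, with overlap between NormMg-LFD (0.146 to 0.219) and NormMg-HFD mice (0.0505 to 0.148). All are mean ± SD over 4, 5, 5 and 5 mice, and none was tested.

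Of 6 T cell, 4 B cell and 3 tested NK cell genes, 0 were called in any of the comparisons, and summed T cell markers ranged from 3.91 to 26.53 FPKM in NormMg-HFD and from 7.26 to 16.31 FPKM in LowMg-HFD mice. Of 6 dendritic cell genes 0 were called higher on the NormMg-HFD, although the median log2 difference of this list was 0.37. Zbtb46, a transcription factor of these cells, was called lower, at -0.35 (adjusted p = 0.0197, limma). Of 2 monocyte genes Ccr2, the receptor that brings monocytes into tissue, rose by 0.94 (adjusted p = 0.0103, limma), and of 4 tested neutrophil genes S100a8 rose by 2.43 and fell by 1.83. Among the defining markers of neutrophils, Ly6g was at 0 in NormMg-LFD, LowMg-LFD and LowMg-HFD mice. Of 4 mast cell genes, low Mg2+ on the HFD lowered 3, against 6.97% of all genes tested, and 0 were called on the NormMg-HFD. The 1 eosinophil gene tested did not pass.

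Of 8 adipocyte genes, 5 were lower and 1 higher on the NormMg-HFD, against 8.82% and 15.9% of all genes tested. Low Mg2+ on the HFD raised 4 and lowered 0, against 2.58% and 6.97% of all genes tested. Adipoq was at -0.73 ± 0.18 (SE, adjusted p = 0.00545, limma) and 0.69 ± 0.17 (SE, adjusted p = 0.0152, limma) in these comparisons. The share of RNA from adipocytes and that from white blood cells add up within a library, so that a fall of one cannot be told apart from a rise of the other.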

How the data were processed

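Total RNA of eWAT was sequenced by the authors as 50-base single-end reads. Per the labels, mapping used HISAT and Bowtie2 (GRCm38) and RSEM 1.2.31 gave the FPKM of each gene, which the authors deposited in 1 table without counts of reads per gene, so that the counting error of a single value is unknown. Read counts per library and the percent of reads mapped were deposited by the authors beside it. The table lists 24238 genes, of which 1 has a non-numeric cell and was dropped, and 26 symbols turned into dates were restored from identifiers.

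Here, 1 was added to each FPKM, log2 was taken, and the 15785 genes with a mean of at least 0.5 FPKM over 19 mice were tested with limma (version 3.58.1, under R 4.3.3), using its intensity trend. The 4 groups were fitted together, the two-sided p values received a Benjamini-Hochberg adjustment, and the threshold was 0.05. All 6 leukocyte integrins were tested.

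The members and gene lists were chosen with earlier results of these data known. The rule for naming took the members, chosen markers and the 8 genes most like Itgb2. From each list it took up to 4 genes with the largest differences on the NormMg-HFD. Several of these are not named above, so that unnamed genes of a list can differ more than named ones. A gene that this rule names is not reported here. C3, Icam2, Jam2, Rasgrp2, Zbtb46, Ly6g, Cox6a2, Cerkl and Gm17831 were named after their values were seen. Alternatives were a value of 0.1 added, no filter, the study's filter, median centring, quantile normalization and only the groups compared. Others were no trend, a replicate block, leaving out each mouse and, added after seeing the data, leaving out 2 libraries with transcripts of another tissue. The study's filter was a group mean above FPKM 8 with at least 4 mice of that group above it. It kept 8336 genes here, which is not the number in the study, where a LowMg-HFD library was left out. The plots were made in matplotlib 3.10.9 under Python 3.11.15.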

Additional observations from a re-analysis of the deposited data

Results flagged for a closer look

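Among 24 combinations of a leukocyte integrin and a diet group, 1 value stood apart from the rest of its group by Dixon's test at the 95% level. Itgad was at 1.71 FPKM in LowMg-LFD replicate 2, against 0.05 to 0.5 FPKM in the other mice of that group (ratio of gap to range 0.729, critical value 0.71). By chance about 1 in 20 groups would give such a value. NormMg-LFD replicate 4 had the same FPKM of Itgad, and both are far below the 8.77 to 18.63 FPKM of NormMg-HFD mice.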

How the results depend on the processing

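The calls of Itgb2, Itgam, Itgax, Itgad and Itga4 on the HFD at normal Mg2+ held in every alternative in which the gene was tested. Those of Itgb2 and Itgam for Mg2+ on the HFD did so too. Among the alternatives, the study's filter adds no support for Itgax and Itgad, which pass it only through HFD groups, where they are high. Leaving out each mouse in turn, the leukocyte integrins called were 5 to 5 on the HFD at normal Mg2+, 3 to 5 on the HFD at low Mg2+ (5 without LowMg-HFD replicate 4), 3 to 5 for Mg2+ on the HFD, 0 to 0 for Mg2+ on the LFD and 0 to 1 for the interaction (1 without LowMg-HFD replicate 1). The cause of these changes was not tested. Itgal and Itga4 are not tested under the study's filter, and under it Itgam at low Mg2+ passed (adjusted p = 0.0498, limma).

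For Mg2+ on the LFD, where no difference passed the test, signs changed with the scaling. Median centring gave 0.11 for Itgam, 0.08 for Itgax and 0.08 for Itgb2, and quantile normalization 0.09 for Itgam, 0.15 for Itgax, 0.06 for Itgad and 0.05 for Itgb2. Leaving out single mice gave -0.20 to 0.19 for Itgam, -0.15 to 0.09 for Itgax, -0.44 to 0.06 for Itgad, -0.14 to 0.17 for Itgb2 and -0.01 to 0.17 for Itga4, and leaving out NormMg-LFD replicate 3 and LowMg-LFD replicate 4 together gave -0.25 for Itgam. For Itgal and Mg2+ on the HFD it gave -0.26 to 0.09.

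Over all genes, 3899, 1216, 1507, 0 and 0 were called for fat at normal Mg2+, fat at low Mg2+, Mg2+ on the HFD, Mg2+ on the LFD and the interaction. For fat at low Mg2+ median centring gave 805 and the fit on the groups compared 329. The interaction gave 104 under the study's filter, 20 after quantile normalization, 2 without a filter, 2 after centring and 1 without NormMg-LFD replicate 3 and LowMg-LFD replicate 4, and Mg2+ on the LFD gave 1 without a filter. Leaving out single mice gave 3146 to 4586, 664 to 1432, 812 to 1662, 0 to 0 and 0 to 299.

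With the replicate block, 3799, 1113, 1374, 0 and 0 genes were called, and no call on a leukocyte integrin changed. Deviations of mice that share a replicate number had correlations of -0.211 to 0.433, with a median of -0.012 over 27 pairs. For different numbers they were -0.505 to 0.299 over 108 pairs. This does not settle whether the numbers pair the mice, and the labels do not say.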
